A study of Homo sapiens with 12 samples.

Results

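The replication-dependent histone genes supply the core histones H2A, H2B, H3 and H4 and the linker histone H1 that package newly copied DNA. They were taken as the protein-coding genes on chromosomes 1 and 6 whose symbols are H1-1 to H1-6 or begin with H2AC, H2BC, H3C or H4C followed by digits, which gave 68 members of 19630 protein-coding genes with a known strand. The rule used names only and no measured value, though it was chosen with earlier results of these data known. Of the 68 members, 6 encode H1, 17 H2A, 18 H2B, 13 H3 and 14 H4, with 55 on chromosome 6 and 13 on chromosome 1.

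Chromatin accessibility had been measured by ATAC-seq, in which a transposase cuts and tags open DNA, in 3 acute myeloid leukemia cell lines: MOLM13 and MV4-11, which carry rearranged MLL1, and OCI-AML3, which carries mutant NPM1. In each line, cells kept as control were compared with cells given 500 nM of the menin inhibitor VTP50469 for 16 h, with 2 libraries per group, 6 groups and 12 libraries in all, and all cells were frozen before tagging. The question for the histone genes was whether the peaks at their start sites depended on the line or on menin inhibition. Each line is a single clonal cancer line, so a difference between lines is a difference between these 3 cultures. A bulk library averages over its cells, so that a site open in fewer cells, a site less open in each cell and a site with fewer gene copies cannot be told apart. Nothing in the labels says whether the 2 libraries of a group came from separate cultures, and the p-values measure only the spread between these libraries.

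Most replication-dependent histone genes are short, lack introns and sit in clusters in which an H2A and an H2B gene often face away from each other across a shared promoter. They are transcribed in S phase from a nuclear compartment, the histone locus body, where the factor NPAT, a substrate of CDK2, gathers. Their mRNAs end in a stem-loop in place of a poly(A) tail. CCAAT boxes, TATA boxes and, in many H2B promoters, an octamer bound by OCT1 are long-known elements of their promoters.

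The lists held 68670 to 145364 peaks per library, most in MV4-11, whose 4 lists held 115689 or more. Read totals were not in the lists, so the depth of a library was judged from the reads over the summits, whose median at promoters was 23 to 46 per library. Of 12 marker genes of other blood lineages (T cell, B cell, erythroid), none had a peak in all 12 libraries. CD3E, CD3G, MS4A1, HBA1 and ALAS2 had one in 0 of 12 libraries, CD3D and HBB in 1, CD79B in 2, CD2 in 3 and CD79A in 7. Of 8 myeloid markers, SPI1, CEBPA and LYZ had one in all 12 libraries, ITGAM in 10, MPO in 8, CSF3R in 7, CSF1R in 2 and CD33 in 1.

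The promoter sequences that the results turn on are printed here as 300 bases, from 250 before to 50 after the start site, from RefSeq on GRCh38.p14, with 3 motifs in capitals: CCAAT or its reverse complement ATTGG (the CCAAT box), TATAAA or TTTATA (the TATA box), and ATTTGCAT or ATGCAAAT (the octamer). Shown are the head-to-head pair with the strongest peak by rank (H2AC15 and H2BC15), the highest ranked H4, H3 and H1 promoters with a listed sequence (H4C8, H3C2 and H1-2), a member with no peak in any library (H1-1) and, chosen after their values were seen, 2 members that depended on the line (H2BC6 and H4C6).
H2AC15 (chr6:27838326-27838625, minus strand): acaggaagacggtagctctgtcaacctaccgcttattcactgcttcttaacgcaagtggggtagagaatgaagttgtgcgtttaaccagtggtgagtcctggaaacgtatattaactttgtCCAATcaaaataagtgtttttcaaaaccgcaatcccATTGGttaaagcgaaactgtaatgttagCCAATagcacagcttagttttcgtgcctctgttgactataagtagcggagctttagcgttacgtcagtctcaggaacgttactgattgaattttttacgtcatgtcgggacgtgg
H2BC15 (chr6:27838319-27838618, plus strand): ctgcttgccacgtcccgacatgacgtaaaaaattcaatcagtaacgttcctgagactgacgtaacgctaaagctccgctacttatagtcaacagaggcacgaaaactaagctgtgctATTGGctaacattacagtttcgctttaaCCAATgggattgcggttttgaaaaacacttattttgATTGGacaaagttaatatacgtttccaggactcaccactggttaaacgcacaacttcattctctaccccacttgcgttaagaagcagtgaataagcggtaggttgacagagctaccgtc
H4C8 (chr6:26285485-26285784, minus strand): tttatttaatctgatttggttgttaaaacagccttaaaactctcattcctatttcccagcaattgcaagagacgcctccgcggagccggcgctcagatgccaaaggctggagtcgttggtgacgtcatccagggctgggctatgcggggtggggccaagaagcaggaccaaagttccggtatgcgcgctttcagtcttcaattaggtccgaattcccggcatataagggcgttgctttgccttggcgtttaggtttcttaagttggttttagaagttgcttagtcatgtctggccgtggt
H3C2 (chr6:26032050-26032349, minus strand): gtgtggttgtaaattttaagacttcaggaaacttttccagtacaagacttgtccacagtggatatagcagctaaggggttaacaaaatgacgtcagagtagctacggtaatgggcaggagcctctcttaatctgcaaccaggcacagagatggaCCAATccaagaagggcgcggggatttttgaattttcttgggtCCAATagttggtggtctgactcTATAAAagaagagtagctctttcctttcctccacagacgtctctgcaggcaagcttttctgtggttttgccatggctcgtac
H1-2 (chr6:26056421-26056720, minus strand): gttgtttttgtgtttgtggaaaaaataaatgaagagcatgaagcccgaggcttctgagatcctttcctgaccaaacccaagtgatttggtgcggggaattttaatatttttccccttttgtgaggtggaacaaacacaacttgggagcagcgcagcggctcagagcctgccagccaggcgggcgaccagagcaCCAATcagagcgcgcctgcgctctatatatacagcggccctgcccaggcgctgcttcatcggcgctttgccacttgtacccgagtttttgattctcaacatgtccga
H1-1 (chr6:26017738-26018037, minus strand): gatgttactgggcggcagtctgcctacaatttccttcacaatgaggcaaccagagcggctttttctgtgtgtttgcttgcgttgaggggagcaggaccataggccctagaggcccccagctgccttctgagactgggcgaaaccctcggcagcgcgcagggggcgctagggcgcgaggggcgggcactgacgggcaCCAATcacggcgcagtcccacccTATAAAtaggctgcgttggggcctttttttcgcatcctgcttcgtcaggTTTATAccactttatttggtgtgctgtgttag
H2BC6 (chr6:26183511-26183810, plus strand): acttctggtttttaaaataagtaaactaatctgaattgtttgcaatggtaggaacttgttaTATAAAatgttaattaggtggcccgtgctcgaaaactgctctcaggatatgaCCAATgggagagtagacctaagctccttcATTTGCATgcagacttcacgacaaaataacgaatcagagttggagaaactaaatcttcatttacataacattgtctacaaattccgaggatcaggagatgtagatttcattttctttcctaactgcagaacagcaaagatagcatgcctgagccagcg
H4C6 (chr6:26240143-26240442, plus strand): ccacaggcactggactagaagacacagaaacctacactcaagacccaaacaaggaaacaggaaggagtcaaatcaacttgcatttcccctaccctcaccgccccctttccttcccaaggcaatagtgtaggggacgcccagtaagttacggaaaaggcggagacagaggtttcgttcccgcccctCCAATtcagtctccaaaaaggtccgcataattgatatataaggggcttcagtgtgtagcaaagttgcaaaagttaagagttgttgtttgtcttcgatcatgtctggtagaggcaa

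The H2AC15 and H2BC15 windows are largely the same DNA read from its 2 strands, since their start sites lie 194 bp apart. Both hold 3 CCAAT boxes and no octamer. H3C2 holds a pair of CCAAT boxes upstream of a TATA box, H1-2 holds 1 CCAAT box, and H4C8 holds none of the 3 motifs. H1-1, without a peak, holds a CCAAT box and TATA box letters, and H4C6 holds 1 CCAAT box. H2BC6 holds the letters of all 3 motifs, but its TATAAA lies far upstream of the start site.

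Over the 63 members with a promoter sequence, 85.7% held a CCAAT box on either strand, against 36.4% of all 15813 protein-coding promoters of the same length. The TATA box letters were found anywhere in the window, on either strand, in 65.1% of members and 9.75% of all promoters. On the gene's strand between -40 and -15 from the start site they stood in 54.0% of members and 3.71% of all promoters. The octamer was found in 41.3% of members and 1.72% of all promoters. The classes differed in these letters. All H1, H2A, H2B and H3 promoters held a CCAAT box (100% of 6, 16, 18 and 11), against 25% of the 12 H4 promoters did. The octamer stood in 77.8% of H2B and 68.8% of H2A promoters, which share windows, in 9.09% of H3 promoters and in none of the H1 or H4 promoters. The H3C4 window is the same as that of H2AC7 at 300 of 300 positions and is counted in both the H3 and the H2A class. A CCAAT box was found in 35 of 39 members with a peak in all 12 libraries, 13 of 15 with a peak in some and 6 of 9 with none. Members were less rich in G and C than promoters at large (median 43.0% against 62.7%). A match of letters is a description and not a bound site.

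**Figure D1:**
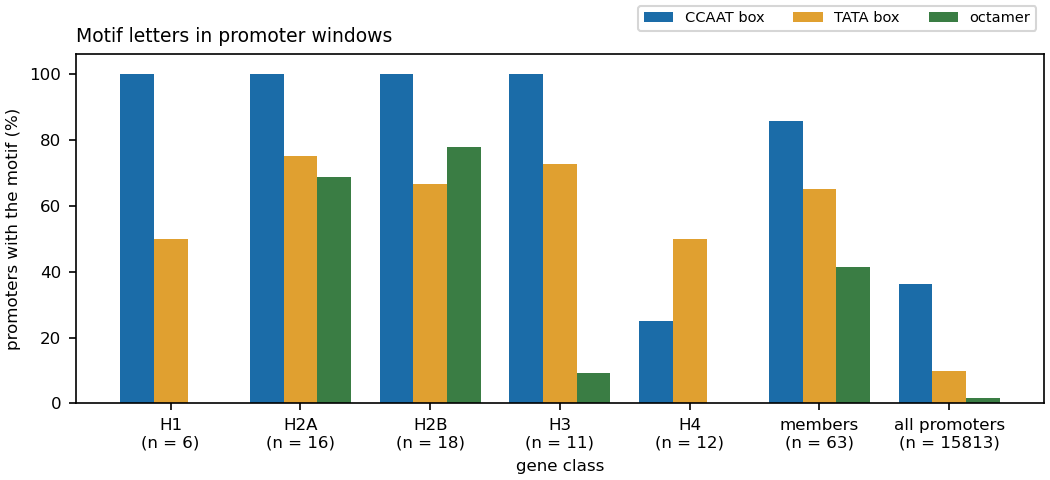
Share of promoter windows (percent, y axis) that hold the letters of the CCAAT box, TATA box or octamer on either strand, by histone class (x axis, with the number of promoters), over all members and over all protein-coding promoters. Each of H1, H2A, H2B and H3 reached 100% for the CCAAT box and H4 25%, and the octamer was found mostly in H2A and H2B windows.

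Of the 68 members, 44 (64.7%) had a peak within 1 kb of the start site in all 12 libraries, beside 51.1% of all promoters, 9 (13.2%) had none in any library, beside 24.5% of all, and 15 had a peak in some libraries. By class, a peak in all 12 libraries was found at 4 of 6 H1, 13 of 17 H2A, 12 of 18 H2B, 7 of 13 H3 and 8 of 14 H4 genes. By line, 48 members had a peak in all 4 MOLM13 libraries (70.6%, with 55.8% of all promoters), 54 in all 4 MV4-11 libraries (79.4%, with 60.2%) and 45 in all 4 OCI-AML3 libraries (66.2%, with 54.4%). Because neighbours share peaks, the 48 to 56 members with a peak in a library rested on 33 to 41 distinct strongest peaks.

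**Figure D2:**
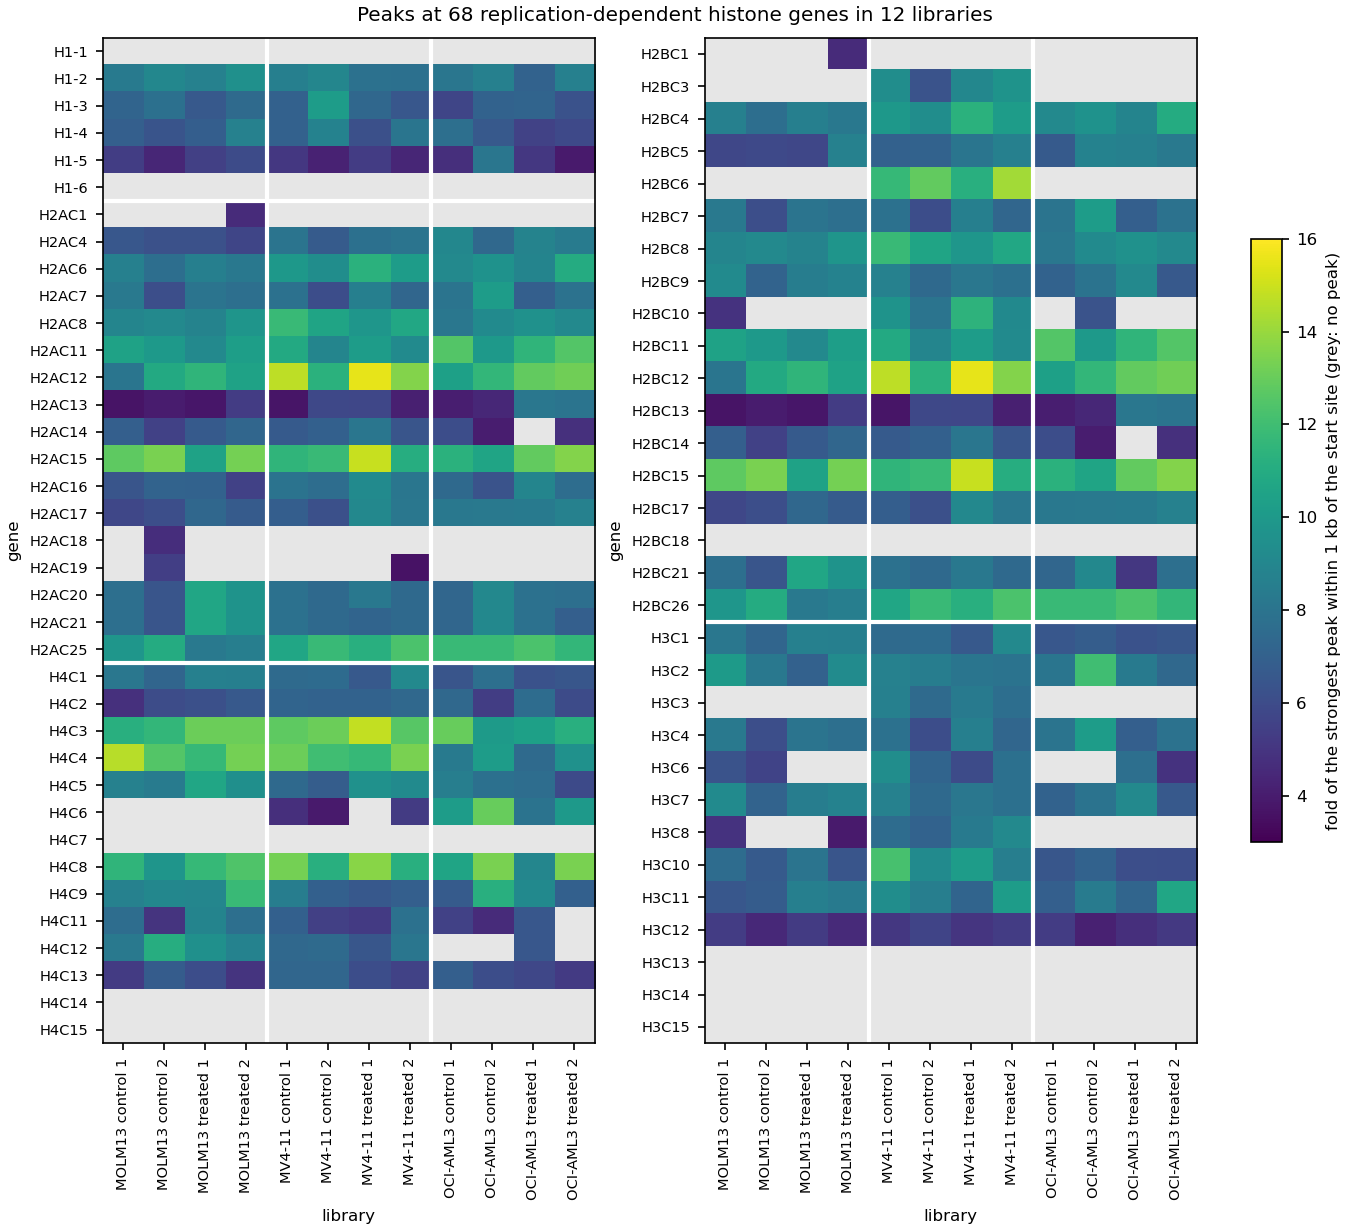
Fold of the strongest peak within 1 kb of the start site (colour) for the 68 members (rows, by class) in the 12 libraries (columns, by line and treatment), with grey where no peak was called. 44 rows are filled in every library, 9 are grey throughout, and H2BC3, H2BC6 and H3C3 are filled only in the 4 MV4-11 columns.

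The 9 members with no peak in any library were H1-1, H1-6, H4C7, H2BC18, H3C13, H3C14, H3C15, H4C14 and H4C15. H1-6 encodes the testis linker histone, and H2AC1 and H2BC1, which encode the testis histones H2A and H2B, had a peak in only 1 library (MOLM13 treated 2, fold 4.62). The remaining 6 of the 9 besides H1-1, H1-6 and H4C7 lie on chromosome 1 in the cluster at chr1:149781689-149888965. Also there, H2AC18 had a weak peak in 1 library (fold 4.72) and H2AC19 in 2 (5.39 and 3.61), with summits at -941 bp and at a median of -972 bp from the start site.

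That chromosome 1 cluster holds near-identical copies. The 300-base promoters of H4C14 and H4C15 were the same at all 300 positions. Of the words of 50 bases in the promoters of H4C14, H4C15, H3C14, H3C15, H2AC18 and H2AC19, 98.4% to 100% also occurred at another place among the listed promoters. Of these 6 members, 4 had no peak in any library and 0 had one in all 12. Among the 50 members whose promoters shared no such word, 4 had no peak in any library and 37 had one in all 12. How reads that fit several places were handled is not stated, and its part in these missing peaks was not tested.

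On chromosome 6, H4C11 and H4C12 had promoters identical at 295 of 300 positions, and 37.5% of their words of 50 bases occurred elsewhere among the promoters. Their strongest summits lay a median of 592 and 653 bp downstream of the start sites, at or past the end of these short genes. Over all members with a peak, the median distance between summit and start site was at most 128 bp in each library. H2AC13 and H2AC14, each in a head-to-head pair and with 17.5% of words shared, stood low by rank of fold, at the percentiles 4.61 and 18.6 of the scale explained next. The part that shared sequence played in these values was not tested.

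The 44 members with a peak in all 12 libraries ranged widely in strength. For each peak MACS2 gives a fold, which divides summit reads by the reads it takes as local background, and folds are given here with their rank among all promoters with a peak in that library, as a percentile from the lowest. H2AC15 and H2BC15, which share their peak, stood highest with a median fold of 12.3 (10.5 to 14.9 over the 12 libraries) at the median percentile 72.2. H4C3 followed at 69.6 (fold 10.1 to 14.8), H4C8 at 66.6 (8.95 to 13.7), and the pair H2BC12 and H2AC12 at 64.5 (8.05 to 15.5). The ranges of these members overlapped, so their order was not resolved.

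The lowest were the pair H2BC13 and H2AC13 at percentile 4.61 (fold 3.68 to 8.15), H1-5 at 9.12 (3.93 to 8.10), H3C12 at 9.73 (4.19 to 5.69), H4C13 at 16.0 (4.96 to 7.30) and H4C2 at 18.9 (4.79 to 7.59). The folds of H3C12 and H4C13 lay below every fold of H2AC15, H4C3 and H4C8. H4C3 and H4C13 encode the same H4 protein, and their peaks differed in strength in every library.

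Compared with other promoters, members had peaks more often but of lower fold. The median fold over members was 7.13 to 8.75 in the 12 libraries, below the median over all promoters with a peak in each of them (9.13 to 11.4). The reads over the summit were not fewer. Their median was 25.5 to 57.0 at members and 23 to 46 at all promoters, with the members higher in 12 of 12 libraries. The background recovered from the fold and the Poisson p-value was higher at members as well, with medians of 2.27 to 5.75 reads against 1.59 to 3.13. Per library, the members' background was 3.72, 4.69, 5.55 and 5.75 reads in MOLM13 libraries, 4.26, 5.01, 4.06 and 4.44 in those of MV4-11, and 2.35, 2.45, 2.46 and 2.27 in those of OCI-AML3. The low folds of members stood beside more background reads than at promoters at large and, by a wide margin only in MOLM13, more summit reads.

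**Figure D3:**
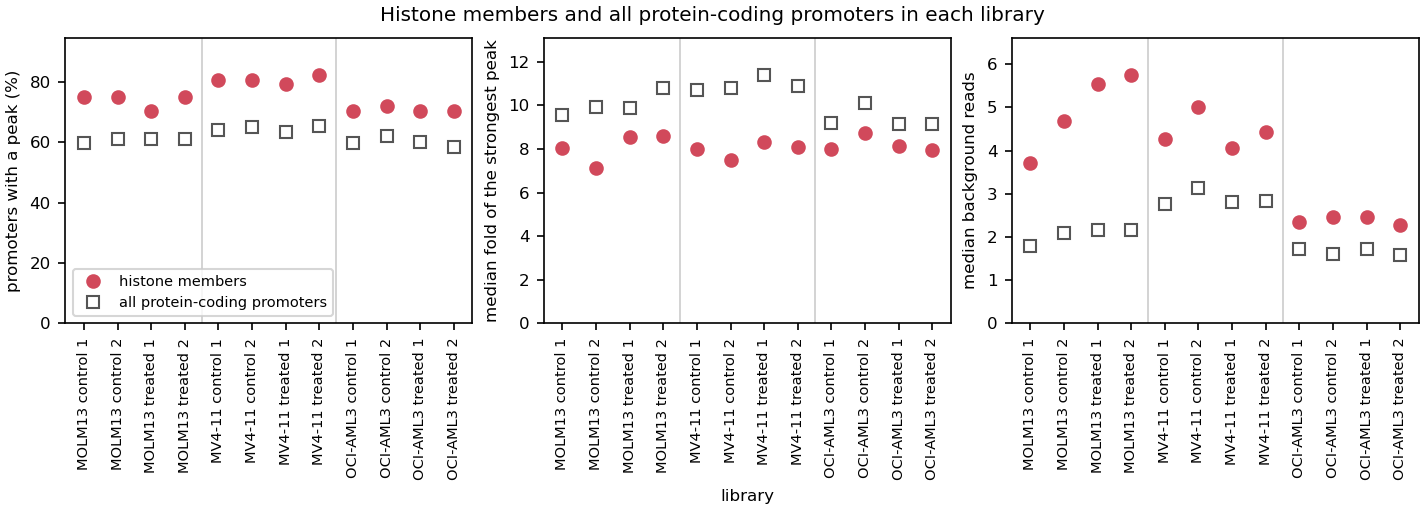
Share of promoters with a peak (percent, left), median fold of the strongest peak (middle) and median background reads (right) in each of the 12 libraries (x axis), for histone members (circles) and for all protein-coding promoters (squares). Members lie above all promoters for the share and the background and below them for the fold in all 12 libraries.

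The clusters on chromosome 6 were dense in peaks. The main cluster, chr6:25725063-26286534 with 34 members, held a median of 51.0 peaks per library that covered 3.80% of its 561 kb, against 1.09% of chromosome 6 between its first and last start sites. In the cluster at chr6:27131316-27148562, with 5 members, 16.6% was covered, and in the cluster at chr6:27806479-27894891, with 16 members, 8.03%. The chromosome 1 cluster with 11 members had 1.39% covered, against 0.844% of the chromosome. It was not dense in peaks, with a median of 32.6 per Mb, against 34.6 per Mb of the chromosome. The small cluster at chr1:228456364-228459558 holds only the pair H2AC25 and H2BC26, and 29.5% of its 3.19 kb was covered. At the 39 members with a peak in all 12 libraries and a gene of at most 1000 bp, peaks covered a median of 69.0% of the gene itself (0 to 100%), and over 90% in 12 of them. These genes are short and were kept for having a peak near the start site, and no other genes of their length were compared.

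In 12 H2A and H2B pairs the start sites faced away from each other at 194 to 248 bp, and 10 of these pairs had a peak in all 12 libraries. In the pairs H2BC4 and H2AC6, H2AC7 and H2BC7, H2BC8 and H2AC8, H2BC11 and H2AC11, H2BC12 and H2AC12, and H2AC17 and H2BC17, both genes had the same strongest peak in 12 of 12 libraries, and its summit lay between the start sites in at least 10 of 12. H2AC15 and H2BC15 shared their peak in 12 of 12 libraries with the summit between the start sites in 7, H2BC13 and H2AC13 in 12 of 12 with the summit between them in 5, and H2AC14 and H2BC14 in 11 of 11 with the summit between them in 6. Such a pair is 1 measurement and not 2, and the pairs are counted here as genes only because the counts are of genes. H3C4 has its annotated 5′ end at the start site of H2AC7 and therefore took the values of that pair, while at its second listed start, 2007 bp away, a peak was called in 12 of 12 libraries with a median fold of 5.84 (4.61 to 8.35). H2BC9 had the fold of its neighbour H3C7 in 12 of 12 libraries, and H4C1 that of H3C1 in all but OCI-AML3 control 1 and 2, with summits at a median of -1055 and -1064 bp from their own start sites.

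The lines differed in which members had a peak. H2BC3, H3C3 and H2BC6 had a peak in 4 of 4 MV4-11 libraries and in 0 of the other 8, a pattern met by 0.555% of all promoters (109) and 4.41% of members. The folds of H2BC6 in MV4-11 were 11.7 and 12.9 in control and 11.2 and 14.2 in treated libraries. H2BC3 had folds of 9.39 and 6.34 in control and 9.03 and 9.66 in treated libraries. For H3C3 they were 8.67 and 7.49 in control and 8.30 and 7.68 in treated libraries. Their peaks rested on a median of 54.0 (H2BC3), 49.5 (H3C3) and 35.5 (H2BC6) summit reads, and control and treated folds overlapped at each. No promoter of a member had a peak in all 4 libraries of MOLM13 only or of OCI-AML3 only, patterns met by 0.0968% and 0.209% of all promoters. With a stricter limit on peaks (-log10 q no lower than 5), H4C6 had the OCI-AML3 pattern and H3C8 joined the MV4-11 pattern.

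H3C8 and H2BC10 also had peaks in all 4 MV4-11 libraries and few others. H3C8 had folds of 7.62, 7.11, 8.33 and 9.12 there, 4.88 in MOLM13 control 1, 3.96 in MOLM13 treated 2 and no peak in the other 6 libraries. H2BC10 had folds of 9.69, 8.0, 11.4 and 9.19 in MV4-11, 4.88 in MOLM13 control 1 and 6.33 in OCI-AML3 control 2. MV4-11 had the longest peak lists, and the part of that in these patterns was not tested. In these 2 members, the peaks outside MV4-11 had folds of 6.33 or less.

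H4C6 was highest in OCI-AML3. Its folds were 10.2 and 13.0 in OCI-AML3 control and 7.96 and 9.97 in OCI-AML3 treated libraries, 4.77, 3.96 and 5.26 in 3 of the 4 MV4-11 libraries, and no peak was called in MOLM13. H4C12 had folds of 8.24, 11.1, 9.53 and 8.76 in MOLM13 and 7.38, 7.48, 6.48 and 8.11 in MV4-11, but in OCI-AML3 a peak only in treated 1 (6.54). H4C11 lacked a peak in OCI-AML3 treated 2 alone, and H2AC14 and H2BC14 in OCI-AML3 treated 1 alone.

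**Figure D4:**
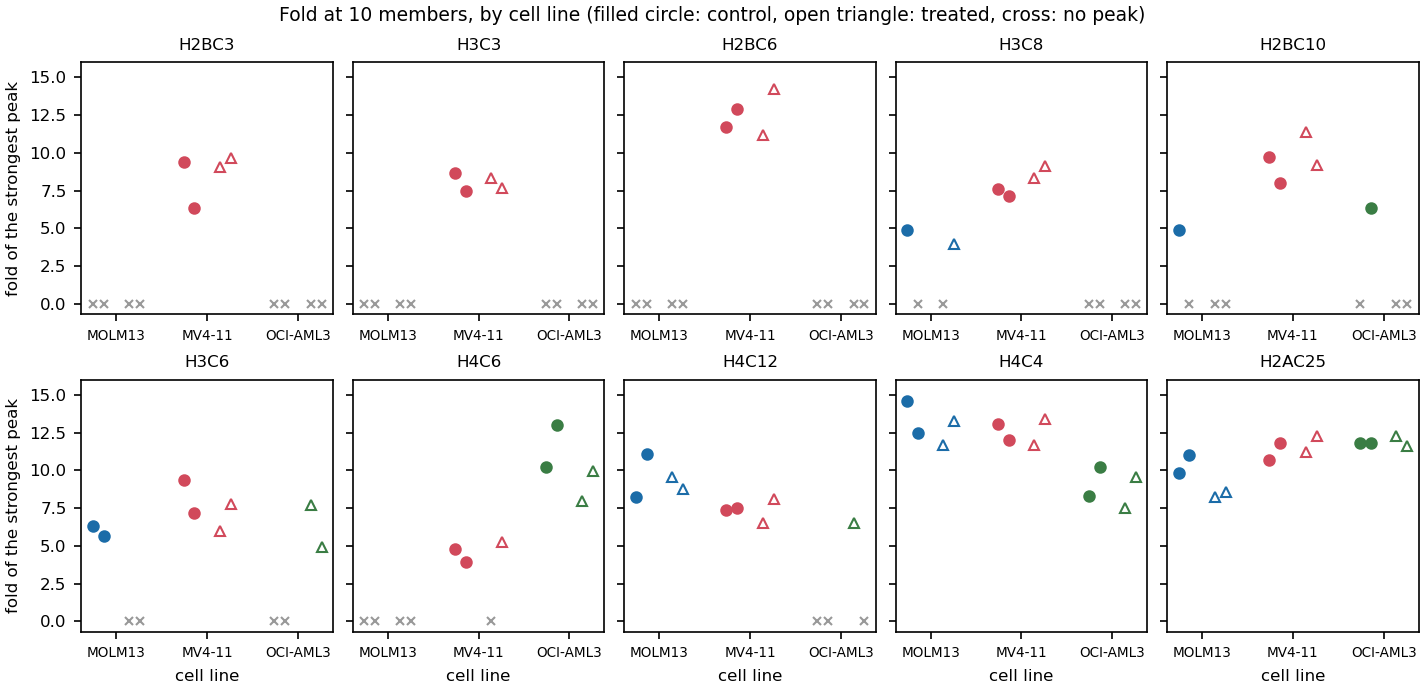
Fold of the strongest peak (y axis) at 10 members in each library, by line (x axis), with filled circles for control, open triangles for treated libraries and crosses at 0 where no peak was called. H2BC3, H3C3 and H2BC6 have points only in MV4-11, and H4C6 is highest in OCI-AML3 with 7.96 to 13.0.

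Line means were also compared with each library's missing peaks set to its lowest fold, in limma on normal scores of the ranks over 14829 promoters. At an adjusted p of 0.05, 4 of 59 members passed between MV4-11 and MOLM13 (4.09% of all promoters), 5 of 59 between OCI-AML3 and MOLM13 (7.35% of all) and 12 of 59 between OCI-AML3 and MV4-11 (12% of all). A promoter with peaks in a single line enters this fit only through that line, with the other 8 libraries at 1 low level, and had to differ. Nothing further is therefore read from these counts, and the differences in H2BC3, H2BC6, H3C3, H3C8, H2BC10, H4C6 and H4C12 are given as the folds above.

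Among the 44 members with a peak in all 12 libraries, folds were ranked within each library and turned to normal scores (a shift of 1 is 1 standard deviation over all promoters), and limma with Benjamini-Hochberg adjustment called few differences between lines. Between MV4-11 and MOLM13, 0 of 44 passed an adjusted p of 0.05 in limma, beside 1.05% of all 10031 promoters (0.768% higher and 0.279% lower in MV4-11). At an unadjusted p of 0.05, 5 of 44 passed, beside 13.9% of all promoters. The smallest p were those of H4C9, with a shift of -1.0 (SE 0.30, adjusted p = 0.137), and of the pair H2AC12 and H2BC12 (0.68, SE 0.29).

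Between OCI-AML3 and MOLM13, 6 of 44 members passed (13.6%, with 4.82% of all promoters), 5 of them higher in OCI-AML3 (2.50% of all) and 1 lower (2.31% of all). In a refit with 1 feature per merged peak region, 2 of 30 member regions passed, with 4.54% of all regions. The pair H2AC25 and H2BC26, which lies apart from the other clusters, had folds of 9.85 and 11.0 in MOLM13 control and 8.24 and 8.58 in MOLM13 treated libraries, against 11.8 and 11.8 in OCI-AML3 control and 12.3 and 11.6 in OCI-AML3 treated libraries, with no overlap between the lines. The shift was 0.95 (SE 0.25, adjusted p = 0.0381 in limma). H2AC4 had folds of 6.51, 6.22, 6.24 and 5.71 in MOLM13 and 9.01, 7.41, 8.80 and 8.42 in OCI-AML3, also without overlap, and a shift of 0.97 (SE 0.27, adjusted p = 0.0452 in limma).

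The pair H2AC13 and H2BC13 was higher in OCI-AML3 by 1.12 (SE 0.31, adjusted p = 0.0497 in limma), but its folds overlapped. They were 3.68, 4.01, 3.81 and 5.29 in MOLM13. In OCI-AML3 they were 4.10 and 4.43 in control, within the MOLM13 range, and 8.15 and 7.99 in treated libraries. The call for this pair thus rested on the treated OCI-AML3 libraries. H4C4 was lower in OCI-AML3. Its folds were 14.6, 12.5, 11.7 and 13.3 in MOLM13 and 8.30, 10.2, 7.49 and 9.56 in OCI-AML3, without overlap, and the shift was -1.05 (SE 0.29, adjusted p = 0.0454 in limma). These calls were narrow. With any 1 of the 12 libraries left out 0 to 3 members passed, and with control libraries alone 0 of 47 did. The count was 0 without MOLM13 control 1 or treated 1, either MV4-11 treated library, OCI-AML3 control 1 or OCI-AML3 treated 1.

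Between OCI-AML3 and MV4-11, 2 of 44 members passed (4.55%, with 7.44% of all promoters), the pair H2AC11 and H2BC11, both higher in OCI-AML3 (3.23% of all were higher and 4.21% lower). The 4 MV4-11 libraries had folds of 10.9, 8.93, 10.2 and 9.22 and the 4 OCI-AML3 libraries 12.5, 9.98, 11.5 and 12.5, which overlapped, and the shift was 1.09 (SE 0.29, adjusted p = 0.0333 in limma). Neither gene passed when MV4-11 control 2, either MV4-11 treated library, OCI-AML3 control 1 or either OCI-AML3 treated library was left out (0 members passed in each case). Although few members passed alone, 41 of 44 had a shift above 0 and their median shift was 0.37, beside 53.1% of all promoters above 0 and a median of 0.05. These 44 are not separate measurements, since members share peaks and the refit per merged peak region held 30 member regions. On summit reads the 39 members on chromosome 6 had a median difference of 0.08 (log2) with 12 of 39 below 0. The other promoters of chromosome 6 had 0.20 with 122 of 533 below 0. The 5 members on chromosome 1 had 0.42 with 0 below 0, beside 0.57 with 10 of 424 below 0 at other promoters of its long arm. Over all promoters the median was 0.05, with 4377 of 10031 below 0.

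Counting reads over the summit instead of the fold gave another picture. After division by the median promoter of each library, 34 of 44 members differed between MV4-11 and MOLM13 at an adjusted p of 0.05 in limma, with 14.7% of all promoters, and 32 of the 34 were lower in MV4-11. Between OCI-AML3 and MOLM13, 34 of 44 passed, with 30.1% of all promoters, and 32 were lower in OCI-AML3. Between OCI-AML3 and MV4-11, 7 of 44 passed, with 23.1% of all promoters. On this scale H2AC4 and the pair H2AC13 and H2BC13 were lower in OCI-AML3 than in MOLM13 (-0.14 and -0.28, log2 of reads), so that the direction of these calls depends on the scale, while H2AC25 and H2BC26 were higher (1.02) and H4C4 lower (-1.26) on both.

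Promoters elsewhere on chromosome 6 differed in the same direction. At the 39 members there, the median log2 difference of summit reads was -0.68 for MV4-11 minus MOLM13, with 39 of 39 below 0, and -0.55 for OCI-AML3 minus MOLM13, with 39 of 39 below 0. At the 17 neighbours on chromosome 6 (other protein-coding genes within 500 kb of a member) these medians were -0.49 and -0.33. At the 533 other promoters of chromosome 6 they were -0.45 and -0.26, and over all 10031 promoters -0.01 and 0.03. Chromosome 6 had the second lowest median of 23 chromosomes for MV4-11 minus MOLM13. On chromosome 1, the pair H2AC25 and H2BC26 differed by 1.02 between OCI-AML3 and MOLM13, and H2AC20, H2AC21 and H2BC21 by 0.16, 0.11 and 0.00. The median of these 5 members was 0.16, beside 0.57 for the other promoters of its long arm and 0.05 for those of its short arm. Between OCI-AML3 and MV4-11 their median was 0.42, beside 0.57 for the other promoters of its long arm and 0.00 for those of its short arm.

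The recovered background moved in the same way. For chromosome 6 members it was lower by a median of 0.64 (-0.64, log2 of background reads plus 1) in MV4-11 and by 0.81 (-0.81) in OCI-AML3 than in MOLM13, beside -0.38 and -0.26 at the other promoters of the chromosome. The fold, which divides reads by background, differed at these members by only -0.03 and 0.14.

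**Figure D5:**
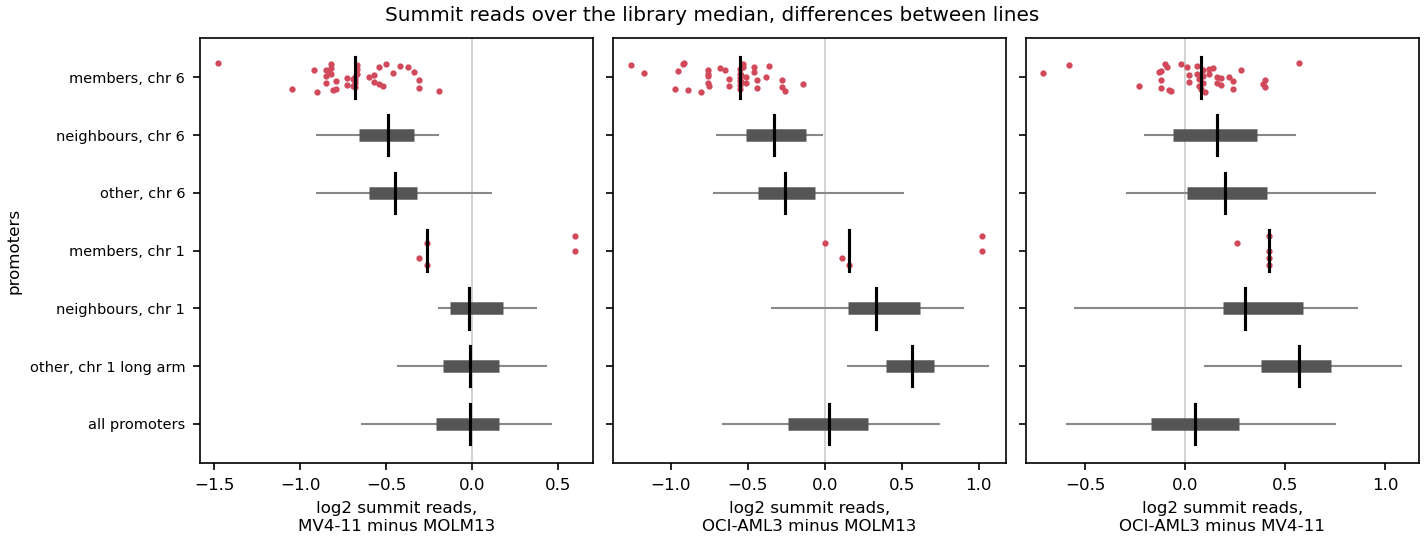
Difference between lines in log2 summit reads, each divided by its library's median promoter (x axis), for members (points, one per gene) and for other promoters (thick bar, 25th to 75th percentile; thin line, 5th to 95th percentile) with medians as black strokes. All 39 chromosome 6 members lie below 0 for MV4-11 minus MOLM13 and for OCI-AML3 minus MOLM13, and the other promoters of chromosome 6 have medians of -0.45 and -0.26.

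Menin inhibition left no called change at any member. In limma on the ranks, 0 of 48 members tested for MOLM13, 0 of 54 for MV4-11 and 0 of 45 for OCI-AML3 passed an adjusted p of 0.05, and 0% of all promoters did in each line. At an unadjusted p of 0.05, 0, 0 and 2 members passed, beside 4.91%, 5.94% and 5.31% of all promoters. Over the 3 lines together, 0 of 44 members passed, with 0% of all promoters, and 2 had an unadjusted p under 0.05, beside 6.06% of all promoters. Members had a median shift of 0.13 for MOLM13, 0.03 for MV4-11 and 0.27 for OCI-AML3, beside 0.00 for all promoters in each line. The largest shift of a member was that of H2AC13 and H2BC13 in OCI-AML3, whose folds were 4.10 and 4.43 in control and 8.15 and 7.99 in treated libraries, without overlap (shift 1.92, SE 0.41, unadjusted p = 0.000295, adjusted p = 0.683 in limma). In MOLM13 and MV4-11 the folds of this pair in control and treated libraries overlapped. Its peak was narrow and weak, 75 to 178 bp wide over the 12 libraries with -log10 q of 2.96 to 13.8. In OCI-AML3 its summit reads stood at -0.94 (log2) from the library's median promoter.

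The next smallest p belonged to H2AC15 in OCI-AML3 (folds 11.3 and 10.6 in control, 12.9 and 13.6 in treated libraries, shift 0.87, SE 0.43), to H2AC20, H2AC21 and H2BC21, which shared 1 peak in MOLM13 (7.76 and 6.44 in control, 10.7 and 9.68 in treated libraries, shift 0.75, SE 0.39) and, in MV4-11, to H4C5 (7.46 and 6.82, then 9.56 and 9.23, shift 0.51, SE 0.28) and the pair H2AC17 and H2BC17 (6.87 and 6.18, then 9.06 and 8.16, shift 0.51, SE 0.29). None passed after adjustment, the adjusted p being 0.894 or more in MOLM13 and MV4-11. H2AC17 also had the third smallest p over the 3 lines (shift 0.42, SE 0.20).

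The treatment shifts of the lines were compared with each other as well, and 0 of 44 members differed between any 2 lines in limma, with 0% of all promoters. At an unadjusted p of 0.05, 0 members did for MV4-11 against MOLM13, 5 for OCI-AML3 against MOLM13 and 2 for OCI-AML3 against MV4-11, beside 3.65%, 6.47% and 5.23% of all promoters. The smallest p were those of H2AC21 for the first (difference -0.98, SE 0.52), of H2AC15 and H2BC15 for the second (1.57, SE 0.55, adjusted p = 0.676) and of H2AC13 and H2BC13 for the third (1.84, SE 0.63, adjusted p = 0.858).

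In the peak lists, H3C6 alone among the members was lost or gained with treatment, where lost means a peak in both control libraries and in neither treated library of a line. In MOLM13 it had folds of 6.33 and 5.62 in control and no peak in treated libraries, with 0.408% of all promoters lost. In OCI-AML3 it had no peak in control and folds of 7.73 and 4.90 in treated libraries, with 0.255% of all promoters gained. In MV4-11 it had a peak in all 4 libraries (9.35 and 7.19 in control, 5.96 and 7.80 in treated). Its peaks rested on 7 to 18 summit reads, with a median of 11 (the fewest at any promoter peak were 4 or 5 per library). No member was gained in MOLM13 (0.693% of all promoters), lost or gained in MV4-11 (0.479% and 0.301%) or lost in OCI-AML3 (0.841%).

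Among listed genes that work on histone genes, on histone proteins or in DNA replication, nearly all had a peak in every library, beside 51.1% of all promoters. All 24 listed factors of the histone locus body and of histone mRNA processing had a peak in 12 of 12 libraries, as did all 16 histone chaperones and assembly factors and 23 of 24 DNA replication genes, the exception being ORC1. Their median percentiles of fold were 66.9, 71.2 and 72.0, against 28.3 for the members and 40.7 for all promoters. Of 15 replication-independent histone genes, 9 had a peak in all 12 libraries and H3-5, H2AL3, H1-7 and H1-8 had none, with a median percentile of 32.9. For comparison, 81 of 84 ribosomal protein genes had a peak in all 12 libraries (median percentile 73.3), and 37 of 71 neighbours did (45.0). None of the listed genes or neighbours passed for treatment in any line.

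Between lines, some of these genes passed in limma. Tested were 24 locus body and mRNA factors, 16 chaperones, 23 replication genes, 9 replication-independent histones and 37 neighbours. Of all promoters, 1.05% passed for MV4-11 against MOLM13, 4.82% for OCI-AML3 against MOLM13 and 7.44% for OCI-AML3 against MV4-11. With control libraries only, 12, 7 and 66 of 10450 promoters passed in these contrasts, so the calls below are narrow as well. CDK2, the kinase that phosphorylates NPAT, was lower in OCI-AML3 than in MOLM13 (shift -1.57, adjusted p = 0.007449) and than in MV4-11 (-1.61, adjusted p = 0.005401), and SYMPK, a scaffold of the 3′ end processing machinery, was lower in OCI-AML3 than in MV4-11 (-1.04). Of the chaperones, NASP, which carries H1 and H3-H4, was higher in OCI-AML3 than in MV4-11 (1.06) and CHAF1B, a subunit of the assembly factor CAF-1, lower (-1.05). Of the replication genes described here, RRM2, a subunit of ribonucleotide reductase, was higher in OCI-AML3 than in MOLM13 (1.03) and MV4-11 (1.05), GINS1 was lower than in MOLM13 (-1.21), and RRM1 was lower in MV4-11 than in MOLM13 (-1.11). Of the replication-independent histones, H2AJ was higher in OCI-AML3 than in MOLM13 (1.33) and H1-10 lower (-1.04). Among 37 neighbours, GUK1, which lies near H2AC25, was higher in OCI-AML3 than in MOLM13 (1.11) and MV4-11 (1.39), PRPF3 was higher and BTN3A2 lower than in MOLM13 (1.33 and -1.46), and ANP32E and BTN2A2 were higher (1.25 and 1.12) and CIART lower (-1.33) than in MV4-11.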

How the data were processed

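ATAC-seq peak lists of 12 libraries were used, with groups and replicate numbers taken from the labels. Per the submitters' processing notes, the authors used MACS2 2.1.0 for peaks after Bowtie 1.1.2, with Trimmomatic 0.33, deepTools and bcl2fastq 2.17, on the build hg38. The study's supplementary methods name TopHat2 as the aligner. Peak threshold, read shift and duplicate handling are not given in the sources used here. The authors called peaks per library. The deposited score, ratio (fold of summit reads over local background), −log10 p and −log10 q and the summit offset in bp are MACS2 values, not normalised between libraries, and the lowest deposited −log10 q was 1.30.

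Genes were RefSeq protein-coding genes on GRCh38.p14 (19974, of which 19630 had a strand, 3817 of these by symbol from GENCODE), with the start site at the 5′ end. A promoter took its strongest peak touching 1 kb on either side. Reads over the summit and background were recovered as the whole number that met both fold (pseudocount 1) and Poisson p within 0.001. They cover counting error only and are not independent molecules.

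Folds of promoters with a peak in every library compared were ranked per library. Normal scores of the ranks were compared with limma 3.58.1 (R 4.3.3), two-sided, with Benjamini-Hochberg adjustment over all promoters. Line contrasts and differences of treatment shifts used all 12 libraries and 6 group means. The test was run on simulated scores with planted shifts and a spread common to all promoters. This checked its estimates and false calls, not its power with 2 libraries per group. Alternatives were another window, summit rule, q limit, scale, filter, replicate block and each library left out. Motifs were searched on both strands with Python 3.11.15. Members and gene lists were chosen with earlier results of these data known. Named were members that passed a test (otherwise the 3 smallest p), the 5 highest and 5 lowest in rank, and those missing peaks. No column of a sample was unused. Values of a few listed genes are not reported here.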

Additional observations from a re-analysis of the deposited data

Results flagged for a closer look

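The H3C6 peak differed with treatment in opposite directions in 2 lines. It was present in both MOLM13 control libraries (folds 6.33 and 5.62) and in neither treated library, and was absent from both OCI-AML3 control libraries and present in both treated libraries (7.73 and 4.90). The difference between the lines did not pass adjustment in limma with missing peaks set to the lowest fold (adjusted p = 0.588), in a fit whose p-values are too small where peaks are missing. With only peaks of -log10 q of at least 5, H3C6 was still lost in MOLM13 but no longer gained in OCI-AML3.

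At other members the treated pair lay above the control pair in 1 line and below it in another, on the scale of log2 fold over the library's median promoter. The treated minus control difference of H2AC15 and H2BC15, which share a peak, was -0.23 in MOLM13 and 0.36 in OCI-AML3, and in limma these shifts differed with an unadjusted p of 0.011 and an adjusted p of 0.676. For H2AC21 it was 0.44 in MOLM13 and -0.12 in MV4-11, but the MOLM13 values were those of the peak at H2AC20 and H2BC21, MV4-11 treated 1 took another peak, and the limma shift in MOLM13 turned to -0.30 within 500 bp of the start site. The difference at H4C9 was 0.14 in MOLM13 and -0.25 in MV4-11. No difference of treatment shifts passed adjustment at any of these genes.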

How the results depend on the processing

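The counts of members called for treatment, over the lines together and for differences of treatment shifts were 0 under every alternative run. The line contrasts depended on the processing. For MV4-11 against MOLM13 (0 called), 15 members passed with -log10 q as the strength, 34 with summit reads and 4 with missing peaks kept. For OCI-AML3 against MOLM13 (6 called), the count was 3 with the summit required in the window, 12 with -log10 q, 34 with summit reads, 2 with 1 feature per merged region and 0 with control libraries only. For OCI-AML3 against MV4-11 (2 called), it was 6 with centred log2 fold, 7 with summit reads, 12 with missing peaks kept, 1 per merged region and 0 with control libraries only. Under the replicate block, which takes the replicate number as a term, 0 members passed in any contrast, and over all promoters 50 in place of 483 passed for OCI-AML3 against MOLM13. Same-numbered libraries deviated together with correlations of only 0.01 to 0.04, so the numbers were not taken as pairs. Over all promoters the count ranged from 12 to 1472 for MV4-11 against MOLM13 (105 reported), from 7 to 3020 for OCI-AML3 against MOLM13 and from 63 to 2314 for OCI-AML3 against MV4-11 (746 reported). The cause of these changes was not tested. Leaving out each library in turn gave 0 to 3 for OCI-AML3 against MOLM13 and 0 to 2 for OCI-AML3 against MV4-11. Members lost or gained in OCI-AML3 were 2 in place of 1 with the summit in the window (H2BC9 beside H3C6) and with peaks of -log10 q of at least 5 (H2AC13 and H2BC13, without H3C6). Counts of members with a peak in all libraries of a line stayed within 1.5 times.

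Single genes reversed under settings of the window and of the scale. H2AC21 reversed for treatment in MOLM13 at 500 bp (-0.30) and with the summit in the window (-0.29), and for the treatment shift of MV4-11 against MOLM13 (0.43 and 0.44). On summit reads H2AC12 and H2BC12 reversed for MV4-11 against MOLM13 (-0.31), and H2AC4 (-0.14), H2AC13 and H2BC13 (-0.28) for OCI-AML3 against MOLM13. Taking all listed start sites was chosen after seeing the data and changed no count of members by over 1.5 times. Peaks resting on few summit reads limit what can be said of H3C6, H4C6, H4C11 and H4C12, and a promoter without a peak need not be closed. The narrow and weak peak of H2AC13 and H2BC13 limits what can be said of that pair as well.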
